A study of Mus musculus with 6 samples.

Results

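The ephrins, their Eph receptors, the semaphorins and their plexin receptors were examined in NIH3T3 mouse embryo fibroblasts with and without overexpression of NgBR, the Nogo-B receptor encoded by Nus1. Genes were taken by name from the table of raw counts: every ephrin A or B, EphA or EphB receptor, class 3 to 7 semaphorin and class A to D plexin, which gave 51 of 35275 genes. They comprised 8 ephrins, 14 Eph receptors, 20 semaphorins and 9 plexins. RNA was sequenced from wild-type cells in 3 libraries and from cells labelled NgBR overexpression in 3. The latter came from cells stably transfected with a plasmid for NgBR with an HA tag (pIRES-NgBR) under G418 selection, per the labels' protocols, and the sources used here do not say whether they were a clone or a pool. No treatment was labelled in either group, both lines grew in DMEM with 10% calf serum, penicillin and streptomycin, and 1.5 micrograms of total RNA entered each library. Since separate cultures are not named, the spread behind each p-value is that between these libraries and may be technical.

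Ephrins and Eph receptors signal at contacts between cells. A-class ephrins are held in the membrane by a lipid anchor and mostly bind EphA receptors, whereas B-class ephrins span the membrane and mostly bind EphB receptors. Both sides can signal, since the receptor is a tyrosine kinase and the ephrin relays signals into its own cell. Semaphorins are secreted (class 3) or held at the membrane (classes 4 to 7) and act through plexins, large receptors whose cytoplasmic part acts on small GTPases. Class 3 semaphorins mostly need a neuropilin as co-receptor. These families are known for steering axons and, in fibroblasts, for cell repulsion, spreading and migration.

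Total counts lay between 29515072 and 35511769 in wild-type libraries and between 7369961 and 10358381 in the others, a 3.50-fold difference in mean depth that coincides with the groups. A count of 3 over a whole group stood for 0.0307 CPM (counts scaled to 1000000 per library) in wild type and 0.108 CPM in the labelled group. Mouse Nus1 itself was at 211 ± 22.8 and 178 ± 11 CPM (SD, n = 3 each), with a log2 fold change of -0.24 and edgeR adjusted p = 0.786, and so was not raised with the label; whether transgene reads were counted there was not tested. Directions are therefore those of the libraries labelled NgBR overexpression. Both libraries numbered 2 stood apart from the other 4 on the second principal component (-35.0 and -52.0, against 5.3 to 38.5), and values without both are given for the members whose results rest on them. All 10 fibroblast markers passed the filter on low counts and 0 were called. Neural markers summed to between 8.29 and 10.7 CPM in wild type and between 10.5 and 25.0 CPM in the others, with 1 of 4 tested called higher (Syt1) and all 4 positive, at a median log2 fold change of 1.02. Among them Map2 was at 2.66 and 7.99 CPM (edgeR adjusted p = 0.0562), and Stmn2 and Nefl had 5 or fewer counts in all. Syt1 had only 0, 2 and 0 counts in wild type and 5, 6 and 6 in the labelled libraries. It passed the filter only through the latter, where it was high, so its call and its part in the median depend on that selection. Gap43, which was not tested, went the other way, with 19, 10 and 22 counts in wild type and 0, 0 and 1 in the labelled libraries. Endothelial markers summed to at most 1.0 and 2.20 CPM, with 0 tested and Cldn5 at 0. Skeletal muscle markers summed to between 1.86 and 3.31 CPM in wild type and between 5.54 and 16.6 CPM in the others, with Tnnt2 at 1.33 and 8.91 CPM and Des at 0.740 and 1.95 CPM, neither called, and Myod1 and Myog at 0. Epithelial markers summed to 0.237 to 0.859 and 0.791 to 2.67 CPM and leukocyte markers to 2.20 to 4.85 and 2.95 to 4.25 CPM, with 0 called in either list. Krt14 was at 0.358 and 1.21 CPM and Cdh1 at 0.150 and 0.586 CPM, and Epcam, Krt18 and Cldn4 were at 0. Their part in the results was not tested.

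A gene was called at an adjusted p under 0.05 in edgeR's quasi-likelihood test over all 12651 genes that passed the filter, among them 35 of the 51. Of the 35, 2 rose, Efna3 and Sema6b, and 2 fell, Ephb6 and Plxnb1. In bulk libraries a lower share of cells with a transcript and less of it per cell cannot be told apart. This is 11.4% of the tested members, where 3.39% of all tested genes were called. Of all tested genes 2.04% were called higher and 1.35% lower. The median log2 fold change (called log2 change from here on) was 0.08 over the 35 and -0.01 over all tested genes. Each of the 4 roles contributed 1 called gene: a ligand rose in both ligand families and a receptor fell in both receptor families. This pattern rests on 4 genes. With each of the 6 libraries left out in turn, Efna3 was called 0 times, Sema6b 1 time and Ephb6 and Plxnb1 6 times. The receptor gene Plxna4 was called higher without a filter on low counts and with the replicate number as a block. The 200 bases upstream of the start of these 4 genes are shown because they are the only members that passed the test; they lie 250 to 51 bases before the RefSeq start (GRCm38.p6, the same assembly as mm10), read 5′ to 3′ on the gene's strand, with each GC box (GGGCGG or its reverse CCGCCC) in capitals. Where a gene had several entries the outermost start was used.
Efna3, chr3:89322990-89323189, minus strand: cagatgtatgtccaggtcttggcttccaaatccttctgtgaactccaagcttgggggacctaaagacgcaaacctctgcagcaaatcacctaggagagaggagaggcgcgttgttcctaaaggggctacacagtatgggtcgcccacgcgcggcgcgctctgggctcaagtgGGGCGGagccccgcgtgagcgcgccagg
Sema6b, chr17:56140394-56140593, minus strand: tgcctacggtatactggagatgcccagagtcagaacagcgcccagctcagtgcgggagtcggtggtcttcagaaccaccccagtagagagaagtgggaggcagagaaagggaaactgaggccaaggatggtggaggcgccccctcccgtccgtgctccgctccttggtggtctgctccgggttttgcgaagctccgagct
Ephb6, chr6:41605261-41605460, plus strand: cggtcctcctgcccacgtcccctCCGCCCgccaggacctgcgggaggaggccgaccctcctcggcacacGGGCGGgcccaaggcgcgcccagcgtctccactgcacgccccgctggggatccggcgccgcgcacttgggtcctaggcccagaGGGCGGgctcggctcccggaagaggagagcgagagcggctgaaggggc
Plxnb1, chr9:109095186-109095385, plus strand: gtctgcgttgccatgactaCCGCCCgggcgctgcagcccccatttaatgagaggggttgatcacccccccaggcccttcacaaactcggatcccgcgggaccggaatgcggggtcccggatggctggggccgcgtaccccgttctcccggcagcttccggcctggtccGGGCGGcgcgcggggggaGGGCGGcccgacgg

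The upstream sequences of the 2 genes that fell each held 3 GC boxes, that of Efna3 held 1 and that of Sema6b held 0. A GC box occurred in 24.6% of 32851 RefSeq promoter windows of the same length. These windows were not limited to genes expressed in these cells. The 4 were not compared with the windows of other tested genes. The share of G and C was 76.5% for Ephb6, 72.5% for Plxnb1, 61.5% for Sema6b and 60.5% for Efna3, against a median of 51.5% over all windows. CpG dinucleotides numbered 23, 23, 11 and 14 in the same order, against a median of 4. On both strands, TATAAA, the TATA box, was found in 0 of the 4 and in 9.14% of all windows. The E-box CACGTG was found in 0 of the 4 and in 4.34% of all. ACGTG, a form of the core of the hypoxia response element that is also part of that E-box, was found once, upstream of Ephb6, and in 12.9% of all. Other forms of that core were not counted, such as GCGTG, present upstream of Efna3 and, as its reverse CACGC, also upstream of Ephb6. These are matches of letters, not measured binding. Of the 51 genes, 45 had an entry in the promoter table.

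**Figure D1:**
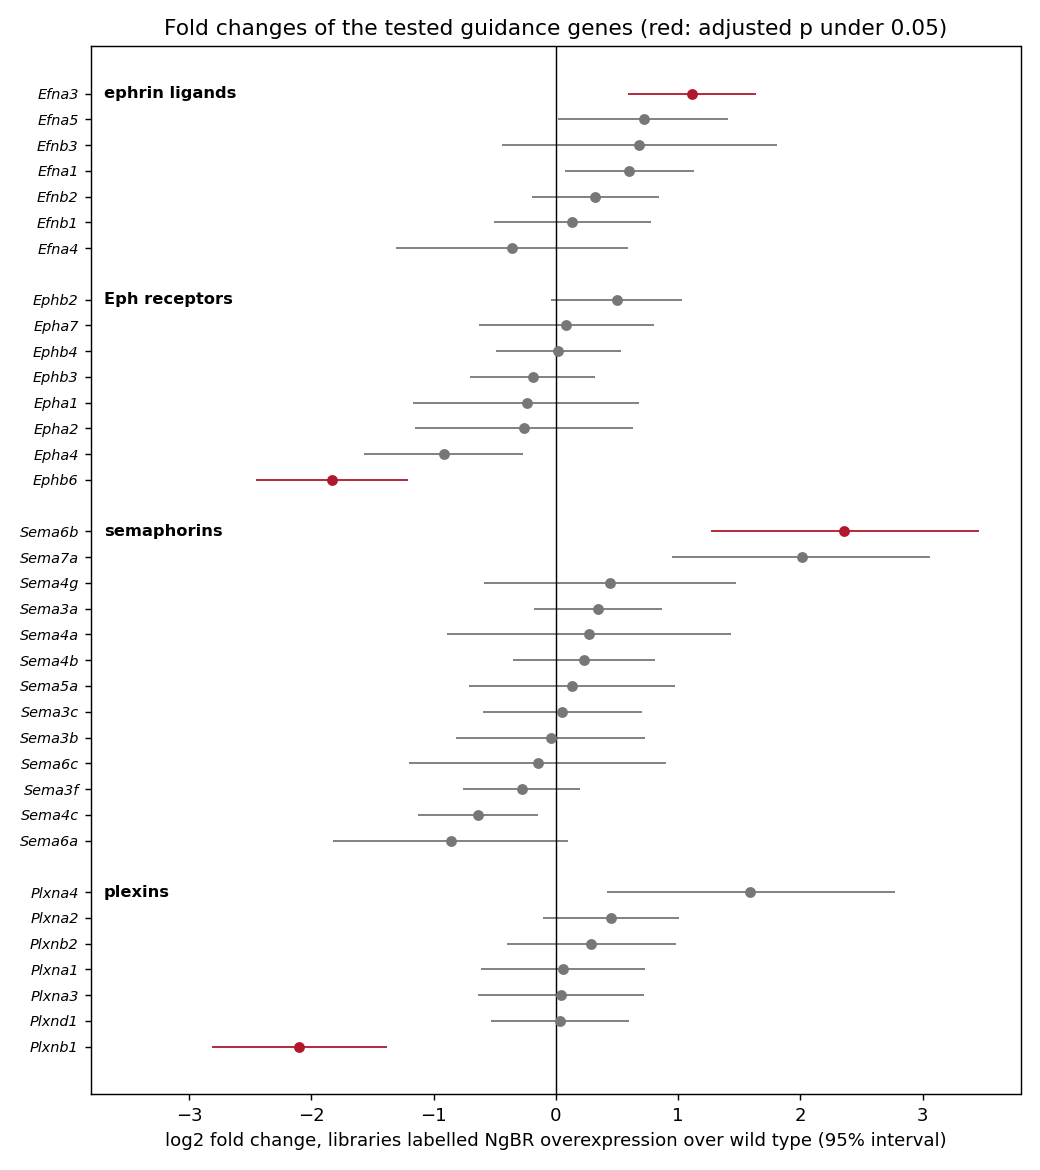
Log2 fold change (horizontal axis, libraries labelled NgBR overexpression over wild type) with its 95% interval for each of the 35 tested genes, grouped by role. The 4 genes in red passed the test, at 1.11 (Efna3), -1.83 (Ephb6), 2.36 (Sema6b) and -2.10 (Plxnb1).

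Among the ephrins, Efna3 rose 2.16-fold and the other tested ligands, A-class and B-class, did not pass the test. Efna3, the gene of the lipid-anchored ligand ephrin-A3 (ENSMUSG00000028039, mm10 chromosome 3, 89313899 to 89322965, minus strand, protein-coding), measured 5.90, 6.26 and 5.69 CPM in wild-type replicates 1 to 3. In labelled replicates 1 to 3 it was at 13.6, 13.3 and 11.8 CPM. The lowest labelled library lay well above the highest wild-type library, and the spread within each group was small. The means were 5.95 ± 0.289 and 12.9 ± 0.987 CPM (SD, n = 3), a log2 change of 1.11 (SE 0.23, 95% interval 0.59 to 1.64, edgeR adjusted p = 0.0334). The size hardly moved when a library was left out (1.06 to 1.17), but the call was lost each time: edgeR adjusted p = 0.193, 0.0538 and 0.198 without wild-type libraries 1 to 3, and 0.123, 0.0606 and 0.0621 without labelled libraries 1 to 3. Of its exonic bases, 14.1% overlap the antisense gene Gm15998, which had 5 or fewer counts in every library.

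Efna3 lies between Efna1 and Efna4 on chromosome 3, all on the minus strand, 32.8 kb from the former and 10.4 kb from the latter. Efna1, the gene of ephrin-A1, was at 9.16, 8.63 and 9.48 CPM in wild type and 12.3, 12.8 and 16.2 CPM in the labelled libraries. These ranges did not overlap either, with a log2 change of 0.60 (SE 0.23, edgeR adjusted p = 0.333). Efna4 was at 7.76, 4.74 and 8.16 against 3.65, 3.36 and 8.98 CPM, so that its groups overlapped and its log2 change was -0.36 (95% interval -1.31 to 0.59, edgeR adjusted p = 0.863). The 3 neighbouring ligands thus had fold changes of different size and sign, with 1 call among them.

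Efna5 was the most abundant A-class ephrin, at 43.4, 49.9 and 36.7 CPM in wild type and 77.6, 94.7 and 41.5 CPM in the labelled libraries. Labelled library 3 fell within the wild-type range, and the log2 change of 0.72 (SE 0.31) gave edgeR adjusted p = 0.414. The fifth A-class gene, Efna2, had 6 counts over the 6 libraries and was not tested. Summed over the 5 genes and scaled by exonic length, A-class ephrins were at 23.1, 22.6 and 21.8 CPM per kilobase (kb) in wild type and 33.9, 38.0 and 29.7 CPM per kb in the labelled libraries. The sums of the groups did not overlap.

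Efnb2, the ligand known for binding EphB4, had the highest level per length of all ephrins in wild type, 15.3 CPM per kb against 10.7 for Efna5. It was at 87.4, 121 and 105 CPM in wild type and 154, 126 and 110 CPM in the labelled libraries, with a log2 change of 0.32 (95% interval -0.20 to 0.84, edgeR adjusted p = 0.722). Efnb1 and Efnb3 were at 6.46 ± 1.70 and 0.883 ± 0.328 CPM in wild type and 7.09 ± 0.869 and 1.46 ± 0.679 CPM in the labelled libraries (SD, n = 3). Their log2 changes of 0.13 and 0.68 did not pass edgeR's test (adjusted p = 0.941 and 0.724). Of the 7 tested ephrins 6 had positive fold changes, and 1 was called.

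**Figure D2:**
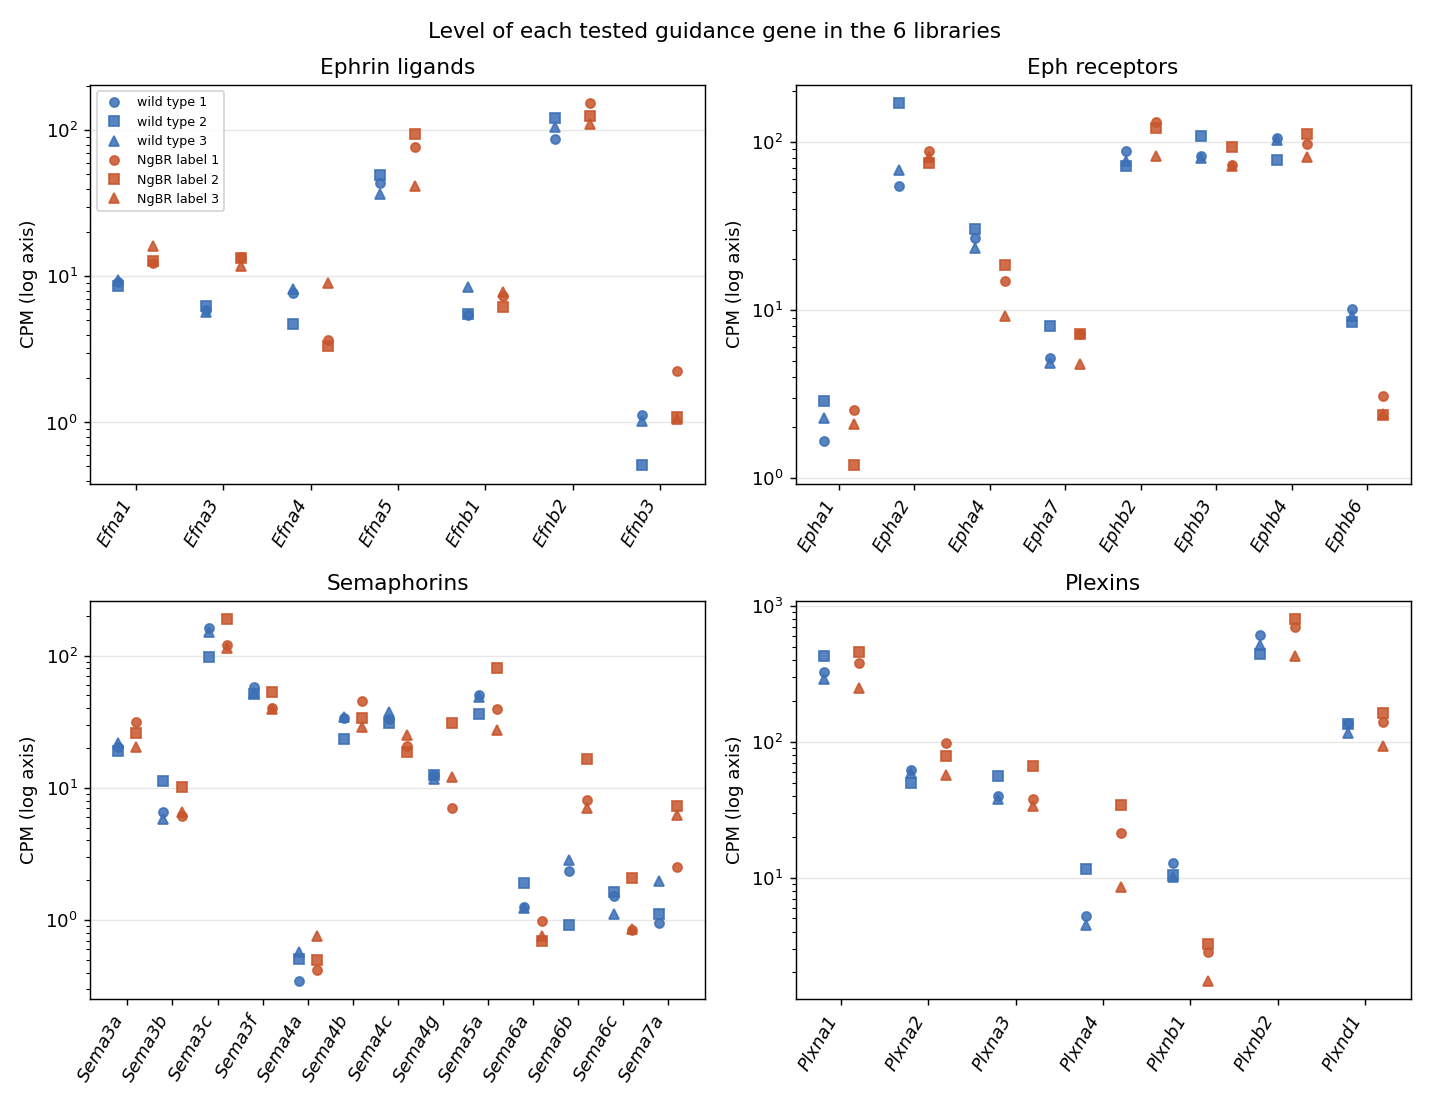
Level of the 35 tested genes in each of the 6 libraries, in CPM on a log axis, with wild-type libraries in blue, libraries labelled NgBR overexpression in orange and the replicate number given by the shape. Efna3, Sema6b, Ephb6 and Plxnb1 are among the 9 genes whose groups do not overlap, and Epha2 stands high in wild-type library 2 at 170 CPM.

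Among the Eph receptors, Ephb6 fell 3.55-fold, while the groups overlapped for the receptors with the highest levels. Ephb6 encodes a receptor whose kinase domain is catalytically inactive and which signals through other Eph receptors and kinases (ENSMUSG00000029869, chromosome 6, 41605482 to 41620509, plus strand, protein-coding). It measured 10.1, 8.46 and 9.21 CPM in wild-type replicates 1 to 3 and 3.09, 2.37 and 2.39 CPM in labelled libraries 1 to 3. All 3 labelled libraries lay far below all 3 wild-type ones. The means were 9.25 ± 0.811 and 2.62 ± 0.407 CPM (SD, n = 3), with a log2 change of -1.83 (SE 0.28, 95% interval -2.45 to -1.21, edgeR adjusted p = 0.00704). The call held in all 16 alternatives run, including each library left out in turn, with log2 changes from -1.96 to -1.75.

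The other EphB receptors were either far more abundant or near absent. Ephb4, Ephb3 and Ephb2 were at 95 ± 14.9, 90.2 ± 15.1 and 78.6 ± 8.39 CPM in wild type and 96.3 ± 15.0, 79.0 ± 12.5 and 111 ± 25.7 CPM in the labelled libraries (SD, n = 3). None of the 3 was called, with log2 changes of 0.02 (95% interval -0.49 to 0.53), -0.19 (-0.70 to 0.32) and 0.50 (-0.04 to 1.03). The value of Ephb4 was 0 or negative in 5 of the alternatives. Ephb1 had 0 counts in the wild-type libraries and 2 in each labelled library, and was not tested. Its labelled level was 7.05-fold that of 3 counts over the wild-type group, a ratio that leaves out counting error. Without a filter on low counts its edgeR adjusted p was 0.116. Ephb6 had the lowest level per length of the 4 tested EphB receptors, and the summed EphB level was 42.7 ± 1.94 CPM per kb in wild type and 42.2 ± 6.43 in the labelled libraries (SD, n = 3).

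Of the EphA receptors, 4 were tested and 0 called. Epha4, which binds ephrins of both classes, was at 26.7, 30.2 and 23.5 CPM in wild type and 14.9, 18.6 and 9.17 CPM in the labelled libraries. Its groups did not overlap, and its log2 change was -0.92 (SE 0.29, 95% interval -1.57 to -0.27, edgeR adjusted p = 0.179). Epha2, the most abundant EphA receptor per length, was at 54.3, 170 and 68.3 CPM in wild type and 87.8, 75.2 and 81.1 CPM in the labelled libraries. Wild-type library 2 was far above the other 5, so that the log2 change of -0.26 (SE 0.39) turned to 0.41 without that library and 0.46 without both libraries numbered 2. Epha7 and Epha1 were at 6.02 ± 1.77 and 2.27 ± 0.608 CPM in wild type (SD, n = 3), with log2 changes of 0.08 and -0.24. Of Epha1's exonic bases, 6.01% overlap Zyx, an abundant gene on the other strand, and with the strand setting unknown its low counts are uncertain. Epha3, Epha6, Epha8 and Epha10 had 13 or fewer counts each over the 6 libraries, and Epha5 had 0.

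Set side by side, the summed level per length of the A-class ligands had separate groups, while among their tested members Efna4 had a lower mean in the labelled libraries and Efna5 overlapping groups. The EphA sum was at 15.9, 41.7 and 18.6 CPM per kb in wild type and 22.0, 19.4 and 19.6 in the labelled libraries. The high wild-type value was that of library 2 and came from Epha2. B-class ephrins summed to 17.4 ± 2.47 and 21.5 ± 3.40 CPM per kb (SD, n = 3), with overlapping ranges of 14.7 to 19.5 and 18.7 to 25.3. These sums are descriptions, with no test.

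**Figure D3:**
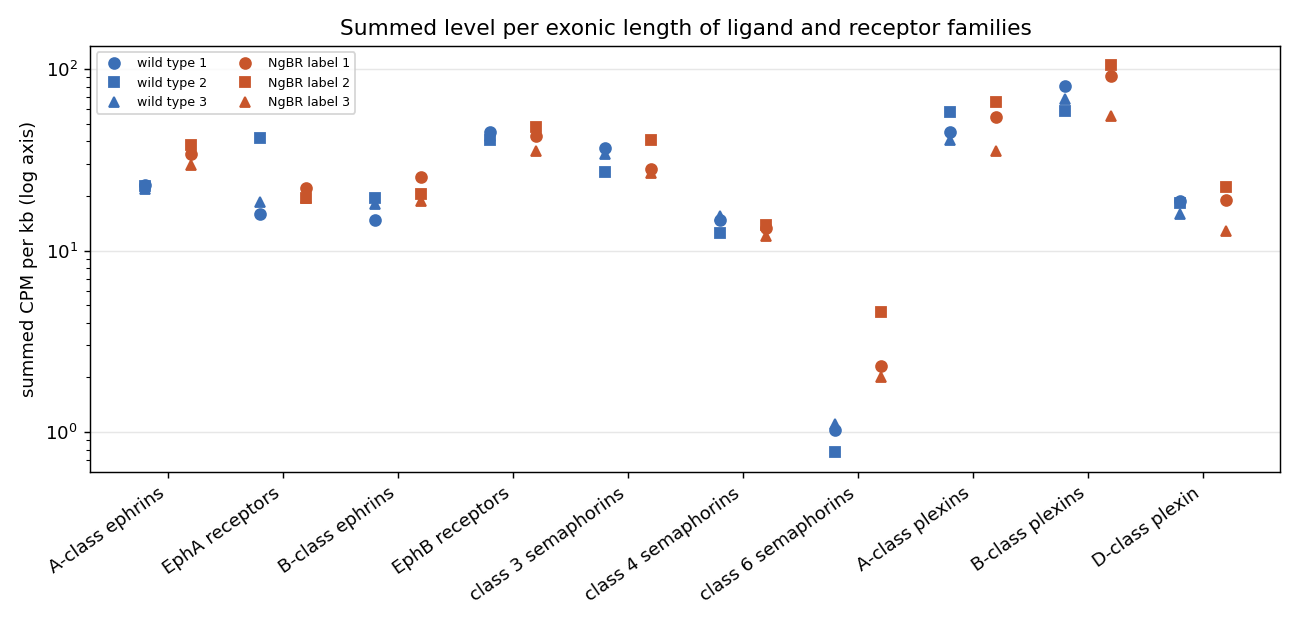
Summed level of ligand and receptor families in each library, in CPM per kb of exonic length on a log axis, with wild type in blue and the libraries labelled NgBR overexpression in orange. A-class ephrins and class 6 semaphorins are separate between the groups, at 21.8 to 23.1 against 29.7 to 38.0 and 0.774 to 1.11 against 2.01 to 4.58, while the receptor families overlap.

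Among the semaphorins, the membrane-bound Sema6b rose and Sema7a had a fold change of similar size that missed the threshold, while the abundant secreted class 3 genes had overlapping groups. Sema6b, the gene of a transmembrane semaphorin known as a ligand of A-class plexins such as plexin A4 (ENSMUSG00000001227, chromosome 17, 56123085 to 56140343, minus strand, protein-coding), measured 2.35, 0.914 and 2.86 CPM in wild-type replicates 1 to 3. In the labelled replicates the levels were 8.14, 16.4 and 7.07 CPM. The groups were separate, with library 2 the lowest of the wild-type group and the highest of the labelled group. The means were 2.04 ± 1.01 and 10.5 ± 5.12 CPM (SD, n = 3), a 5.15-fold difference and a log2 change of 2.36 (SE 0.49, 95% interval 1.27 to 3.46, edgeR adjusted p = 0.0311). Without both libraries numbered 2 the log2 change was 1.54, with edgeR adjusted p = 0.0208. Omitting wild-type library 1 or 2 ended the call (edgeR adjusted p = 0.0686 and 0.0607), as did omitting labelled library 1, 2 or 3 (0.0917, 0.0961 and 0.0529), with log2 changes of 1.88 to 2.68 over all 6 omissions.

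Sema7a encodes a lipid-anchored semaphorin that acts through plexin C1 and beta-1 integrins. It was at 0.945, 1.12 and 1.96 CPM in wild type and 2.53, 7.32 and 6.21 CPM in the labelled libraries. The groups did not overlap, but labelled library 1 lay close to the wild-type range, and the log2 change of 2.01 (SE 0.47, 95% interval 0.95 to 3.06) gave edgeR adjusted p = 0.0548. It was called by DESeq2 (adjusted p = 0.00204), in edgeR without labelled library 1 (adjusted p = 0.0435) and with an offset for exonic length (adjusted p = 0.0369). Without both libraries numbered 2 its log2 change was 1.64 (edgeR adjusted p = 0.175). Of its receptors, Plxnc1 had 20 counts in all and was not tested, and the integrin gene Itgb1 was at 776 and 750 CPM with a log2 change of -0.05.

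The other class 6 semaphorins did not follow Sema6b. Sema6a was at 1.26, 1.89 and 1.23 CPM in wild type and 0.982, 0.693 and 0.764 CPM in the labelled libraries, with a log2 change of -0.86 (SE 0.43, edgeR adjusted p = 0.506). Sema6c had overlapping groups at 1.42 ± 0.269 and 1.26 ± 0.708 CPM (SD, n = 3). Sema6d had 16, 17 and 21 counts in wild type and 0, 1 and 0 in the labelled libraries. It did not pass the filter, which scales its minimum count to depth and so asks for more counts in the deeper wild-type libraries. The ratio of its pooled levels, wild type over labelled, was 15.3 with an exact 95% counting interval of 2.63 to 616, and edgeR adjusted p was 0.0719 without a filter. Within class 6, then, 1 gene was called higher and the other 3 had lower means in the labelled libraries. By summed CPM Sema6b made up the larger part of the class there, and the class sum was at 5.58, 5.01 and 5.84 CPM in wild type against 9.96, 19.3 and 8.69 CPM.

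**Figure D4:**
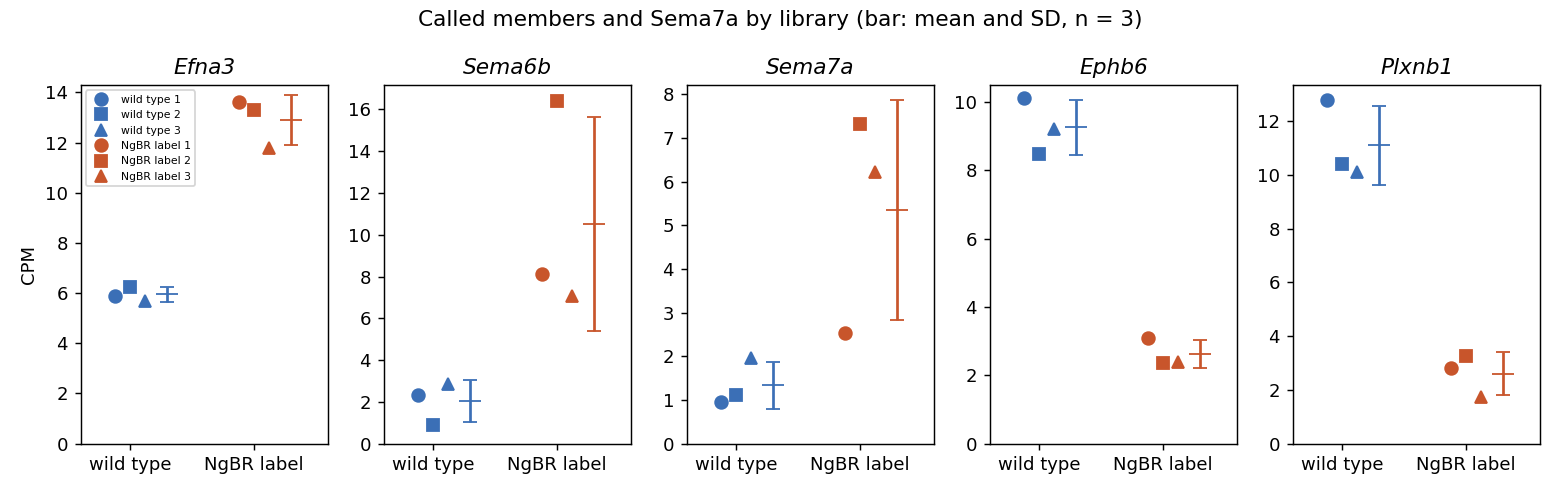
CPM of the 4 called genes and of Sema7a in each library, on axes that start at 0, with the mean and SD of the 3 libraries of a group beside the points. Efna3 and Ephb6 show little spread within groups, whereas Sema6b reaches 16.4 CPM in labelled library 2 against 7.07 and 8.14 in the other labelled libraries.

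Class 3 semaphorins were the most abundant semaphorins per length, and 0 of 4 tested were called. Sema3c, which acts through both neuropilins, was at 162, 97.8 and 150 CPM in wild type and 120, 189 and 115 CPM in the labelled libraries, with a log2 change of 0.05 (95% interval -0.60 to 0.70) whose sign turned without either library numbered 2. Sema3f, a ligand of neuropilin 2, was at 53.5 ± 3.56 and 44.1 ± 7.49 CPM (SD, n = 3; log2 change -0.28, 95% interval -0.76 to 0.20). Sema3a, a ligand of neuropilin 1, was at 20.5 ± 1.43 and 26.0 ± 5.59 CPM (log2 change 0.34), and Sema3b at 7.87 ± 3.00 and 7.62 ± 2.15 CPM (log2 change -0.04). Sema3a lies on chromosome 5 between Sema3d, 536 kb away, and Sema3e, 423 kb away. Those neighbours had 12 and 0 counts in the 6 libraries, while Sema3b and Sema3f, 72.3 kb apart on chromosome 9, were both expressed. Sema3g had 9 counts, all in wild type, a level that 3 counts over the labelled group would not resolve.

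Of the class 4 semaphorins, which mostly bind B-class plexins, Sema4c stood lower in every labelled library: 32.9, 30.8 and 37.1 CPM in wild type against 20.8, 18.8 and 24.9 CPM. Its log2 change was -0.64 (SE 0.22, 95% interval -1.13 to -0.15, edgeR adjusted p = 0.226). Sema4b was at 30.5 ± 6.12 and 35.9 ± 8.45 CPM (SD, n = 3). Sema4g was at 12.6, 12.6 and 11.7 CPM in wild type and 7.02, 30.7 and 12.1 CPM in the labelled libraries, so that the wild-type values lay within a wide labelled range. Sema4a was at 0.474 ± 0.118 and 0.560 ± 0.181 CPM. Sema4d, the ligand best known for plexin B1, had 3, 9 and 1 counts in wild type and 0 in the labelled libraries, and Sema4f had 6 in all. In class 5, Sema5a was at 50.1, 36.4 and 48.3 against 39.4, 80.7 and 27.4 CPM, with labelled library 2 the highest and labelled library 3 the lowest of the 6, and Sema5b had 1 count.

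Among the plexins, the minor receptor Plxnb1 fell more than 4-fold, and the 2 dominant receptors, Plxnb2 and Plxna1, had overlapping groups. Plxnb1 encodes plexin B1, which signals to RhoA through exchange factors (ENSMUSG00000053646, chromosome 9, 109095389 to 109119917, plus strand, protein-coding). It measured 12.8, 10.4 and 10.1 CPM in wild-type replicates 1 to 3 and 2.81, 3.26 and 1.72 CPM in labelled libraries 1 to 3. The highest labelled library was below the lowest wild-type library by a wide margin. The means were 11.1 ± 1.48 and 2.60 ± 0.794 CPM (SD, n = 3), 4.28-fold lower, with a log2 change of -2.10 (SE 0.32, 95% interval -2.81 to -1.38, edgeR adjusted p = 0.00697). The call held in all 16 alternatives, at log2 changes from -2.38 to -1.86. The antisense gene Gm7628, which covers 2.68% of its exonic bases, had 7 or fewer counts in every library.

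Plxnb1 was a small part of the plexin transcripts. Per exonic length it made up 0.855 ± 0.0641% of the summed plexin level in wild type and 0.175 ± 0.00249% in the labelled libraries, whereas Plxnb2 made up 50.5 ± 6.82% and 54.1 ± 0.895% (SD, n = 3). Plxnb2, a receptor of Sema4c among others, was at 613, 446 and 522 CPM in wild type and 701, 806 and 427 CPM in the labelled libraries (log2 change 0.29, 95% interval -0.40 to 0.98). Without both libraries numbered 2 its value was -0.01. Plxnb3 had 5 counts, all in wild type.

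Plxna4 had the largest positive fold change of the plexins. It was at 5.24, 11.6 and 4.49 CPM in wild type and 21.5, 34.3 and 8.60 CPM in the labelled libraries, with a log2 change of 1.59 (SE 0.52, 95% interval 0.42 to 2.77, edgeR adjusted p = 0.206). Wild-type library 2 lay above labelled library 3, so that the groups overlapped. Plxna1, a partner of neuropilins in class 3 signalling, was at 349 ± 70.8 and 363 ± 106 CPM (SD, n = 3; log2 change 0.06, 95% interval -0.61 to 0.73). Plxna2 and Plxna3 were at 57.0 ± 6.23 and 44.8 ± 10.0 CPM in wild type and 78.1 ± 20.9 and 45.9 ± 17.7 CPM in the labelled libraries, with log2 changes of 0.45 and 0.04. Plxnd1, the receptor that Sema3e binds without a neuropilin, was at 129 ± 11.6 and 132 ± 35.8 CPM (log2 change 0.03), and Sema3e itself had 0 counts.

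Over all 35 tested genes, the CPM ranges of the groups were separate for 9 (25.7%), against 18.6% of all tested genes. Higher in the labelled libraries were Efna1, Efna3, Sema6b and Sema7a, where 9.21% of all tested genes were so placed, and lower were Epha4, Ephb6, Sema4c, Sema6a and Plxnb1, where 9.37% were. Of these 9, the 4 higher ones encode ligands, and of the 5 lower ones 3 encode receptors and 2 semaphorins. The 35 tested genes comprised 7 ephrins, 13 semaphorins, 8 Eph receptors and 7 plexins. The 9 were not taken from the called genes alone, and 5 of them did not pass edgeR's test.

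Within the labelled group, many members shared an order of the libraries. Labelled library 2 was the highest of its group for 19 of the 35 genes (54.3%, against 38.1% of all tested genes) and labelled library 3 the lowest for 22 (62.9%, against 34.6%). The plexin sum was 1390, 1610 and 869 CPM in labelled libraries 1 to 3. The tested members had a median exonic length of 5935 bases against 4384 over all tested genes. Across genes, the deviation of a library's level from the mean of the 6 was correlated with exonic length, with a Spearman rho of 0.347 in labelled library 2 and -0.467 in labelled library 3 (across genes, which are not independent replicates). The part of length in the differences between these libraries was not tested beyond the length offset, under which Efna3, Sema6b, Ephb6 and Plxnb1 remained called at log2 changes of 1.18, 2.42, -1.79 and -2.12.

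Co-receptors and neighbouring pathways were described from lists of genes. Of 14 co-receptor genes, 9 were tested and 0 called, where 3.39% of all tested genes were called. Their median log2 change was 0.07. Nrp2, the neuropilin of Sema3f, was at 525, 774 and 500 CPM in wild type and 370, 398 and 267 CPM in the labelled libraries (log2 change -0.80, SE 0.29, edgeR adjusted p = 0.277). Nrp1 was at 207, 121 and 210 against 283, 232 and 206 CPM (log2 change 0.42, edgeR adjusted p = 0.675). The groups were separate for Nrp2 and overlapped for Nrp1. Ptprj, a receptor tyrosine phosphatase gene, was at 1.87 ± 0.443 and 0.485 ± 0.270 CPM (SD, n = 3; log2 change -1.89, edgeR adjusted p = 0.0918), and was called after thinning to equal depth (-2.30, edgeR adjusted p = 0.0433).

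Of 25 other guidance genes in the table (slits, netrins, their receptors and related cues), 14 were tested, 1 rose and 0 fell. Among all tested genes 2.04% were called higher and 1.35% lower. Ntn1 was at 6.67, 6.94 and 8.82 CPM in wild type and 3.65, 1.58 and 2.77 CPM in the labelled libraries (log2 change -1.50, edgeR adjusted p = 0.0562). It was called lower by DESeq2 (adjusted p = 0.00389), and by edgeR without a filter (0.0104) and with the replicate block (0.016). Unc5a, with 22, 10 and 22 counts against 0 in each labelled library, was called lower by DESeq2 and without a filter. Robo1, a receptor of slits, had 2, 0 and 2 counts in wild type and 22, 25 and 8 in the labelled libraries. Its log2 change was 5.48 (SE 0.81, edgeR adjusted p = 0.00621), with values of 4.99 to 5.91 and a call without each library in turn. Robo1 passed the filter only through the labelled libraries, where it was high, so these calls are not independent of that selection. The size of the change rests on the few wild-type counts. After thinning and with a minimum of 1 CPM in 3 libraries the gene was below the filter, and so not tested. Its ligands Slit2 and Slit3 were at 683 and 587 CPM in wild type and 426 and 457 CPM in the labelled libraries, with log2 changes of -0.68 and -0.36 that did not pass the test.

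Of 46 genes of signalling below Eph receptors and plexins, 42 were tested, 1 rose and 1 fell. Among all tested genes 2.04% were called higher and 1.35% lower. Vav3, a guanine nucleotide exchange factor, fell from 5.83 ± 0.423 to 1.49 ± 0.417 CPM (SD, n = 3; log2 change -1.97, SE 0.33, edgeR adjusted p = 0.0121). Omitting wild-type library 1 or 3, or labelled library 1, ended the call (edgeR adjusted p = 0.0642, 0.0549 and 0.0607). Chn1, the gene of chimaerin 1, a Rac GTPase-activating protein that acts below Epha4, rose from 0.271 ± 0.0909 to 1.55 ± 0.292 CPM (log2 change 2.47, SE 0.47, edgeR adjusted p = 0.0229). Omitting any single library ended this call, wild-type 1 to 3 (edgeR adjusted p = 0.0791, 0.0595 and 0.086) or labelled 1 to 3 (0.109, 0.0677 and 0.0656), as did omitting both libraries numbered 2 (log2 change 2.20, edgeR adjusted p = 0.0588). Chn1 passed the filter only through the labelled libraries, where it was high, so its call is not independent of that selection. After thinning it was below the filter. Crmp1, with 15, 17 and 23 counts in wild type and 0 in each labelled library, was not tested. It was called lower by DESeq2 (adjusted p = 0.0348) and by edgeR without a filter (adjusted p = 0.0195). Rnd1 had a log2 change of 0.05 and was called higher without both libraries numbered 2 (1.19, edgeR adjusted p = 0.0237). The GTPase genes Rhoa, Rac1 and Cdc42 had log2 changes of 0.42, 0.39 and 0.21, which did not pass the test.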

How the data were processed

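RNA-seq libraries of NIH3T3 cells were compared, 3 of wild type and 3 labelled NgBR overexpression. The authors deposited whole-number counts for each gene, not normalized. The submitters' processing notes name HISAT2 2.0.5, featureCounts 1.5.0-p3, DESeq2 and the mm10 assembly. Annotation release, strand setting and filters: not given in the sources used here. With the strand unknown, reads of overlapping antisense genes cannot be told apart.

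All genes were fitted with edgeR 4.0.16 in R 4.3.3 (filterByExpr with a minimum count of 10, TMM, quasi-likelihood F test, no covariate, Benjamini-Hochberg adjustment over 12651 genes). The minimum count was applied as a CPM at the median library size, in at least as many libraries as the smaller group held. A gene high only in the deeper wild-type libraries thus needed more counts to be tested than a gene high only in the labelled libraries. Standard errors were derived from the F statistic. CPM, counts scaled to 1000000 per library, used TMM-scaled library sizes, and levels per length used exonic lengths of GENCODE M21, which held 97.8% of the identifiers. Alternatives were DESeq2 1.42.0, limma 3.58.1 (voom), RLE and no composition factors, no filter, a minimum of 1 CPM in 3 libraries, a block for the replicate number, omission of each library, thinning to the shallowest library, a length offset and omission of both libraries numbered 2. Counts of separate groups under other scalings were added after seeing the data. Intervals from pooled counts cover counting error only. No 2 libraries of a group agreed within sampling noise (chi-square of at least 29.2 per gene).

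Genes named are all called members, per role the 3 with the highest level per length and the 3 uncalled with the largest fold change and a mean of at least 1 CPM, and called genes of the lists; other members were named to account for the families. Members and lists were chosen with earlier results of these data known. Promoter windows are those of RefSeq.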

Additional observations from a re-analysis of the deposited data

How the results depend on the processing

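Ephb6 and Plxnb1 were called in all 16 alternatives, Sema6b in 11 and Efna3 in 9, each with its sign kept. The number of members called higher, 2, was 4 without a filter on low counts (1.83% of all genes were called higher there), 4 with the replicate number as a block (3.3%), 3 with DESeq2 (2.82%) and with the length offset (2.44%), 1 after thinning all libraries to the shallowest depth (1.63%) and between 0 and 1 with single libraries left out (1.04% to 1.56%). The number called lower was 3 with the block (2.38% of all genes) and 2 in the other alternatives (0.619% to 2.05%). The number of genes with separate, higher groups was 7 of 35 with the length offset, where 11.1% of all tested genes were so placed, an alternative chosen after seeing the data. Over the whole table, calls numbered 712 with DESeq2, 688 without a filter and 719 with the replicate block, against 429, and 225 to 374 with single libraries left out (225 without labelled library 1). The median log2 fold change of the members ranged from -0.10 to 0.23 over single omissions, lowest without labelled library 2.

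The replicate numbers paired the libraries only in part. Deviations from the group means correlated at 0.0147, 0.341 and 0.434 for numbers 1 to 3. Libraries numbered 2 and 3 correlated best with the library of the same number in the other group. Wild-type library 1 correlated best with labelled library 3 (0.189). The block added calls for Epha4 (edgeR adjusted p = 0.0309), Sema7a (0.00763) and Plxna4 (0.00396).

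Without a filter, which shifts the median of all genes to -0.11, Sema7a and Plxna4 were called (edgeR adjusted p = 0.00478 and 0.0182). Of the 26 genes followed through every alternative that tested them, 6 uncalled ones turned sign; Plxna3, not among them, was at -0.01 without a filter. Ephb4 was at 0 without composition factors, -0.03 without a filter, -0.10 without either library numbered 2 and -0.22 without both, with single omissions from -0.10 to 0.13. Epha2 was at 0.41 and 0.46 without wild-type library 2 and without both (single omissions from -0.55 to 0.41). Sema3c was at 0 without a filter, -0.14 and -0.22 without wild-type or labelled library 2 and -0.41 without both (single omissions from -0.22 to 0.20). Plxnb2 was at -0.01 without both. Plxna1 ranged from -0.15 (labelled library 2 omitted) to 0.27 over single omissions and was at -0.05 with wild-type library 3 omitted. Plxnd1 was at -0.02 without a filter and -0.12 without both numbered 2, and ranged from -0.15 to 0.23 over single omissions. Of 411 values of 26 named genes, 362 kept sign and side of the threshold, 22 lost a call, 8 gained one and 19 turned sign. The cause was not tested. Depth limits what can be seen of members below about 0.108 CPM in the labelled group, the level of 3 pooled counts. The level needed to pass the filter was higher. Sema6d, at a mean of 0.555 CPM in wild type, was not tested.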
